A study of Mus musculus with 18 samples.

Results

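The late effect of whole-body irradiation on haematopoietic stem and progenitor cells taken directly from the bone marrow was examined in 6 RNA-seq libraries of LSK cells (lineage-negative, Kit-positive, Sca1-positive). Each library pooled LSK cells from 3 C57Bl/6 mice. The 3 irradiated libraries came from mice given a sublethal 2.5 Gy from a Cs-137 source and left for at least 9 weeks, and the 3 control libraries from mice whose condition is labelled normal. The sex and age of the mice and the handling of the controls are not given in the sources used here. The series holds 18 libraries in all, the other 12 being LSK cells of single mice cultured for 6 days. Levels are in FPKM, which divides the fragments of a gene by transcript length and library size, and the 12903 genes with a mean of at least 1 FPKM over the 6 libraries, of 25629 listed rows, were tested.

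LSK cells are a mixture of long-term stem cells and multipotent progenitors, which together feed all blood lineages. Ionizing radiation breaks DNA and removes many of these cells, and the survivors refill the compartment over the following weeks. Within the long-term stem cells, a subset primed toward platelets is known to carry RNA of platelet genes such as Vwf and Selp. AP-1, a dimer of Jun and Fos proteins, is a transcription factor that many stress and growth signals induce, and glucocorticoid hormones act through the receptor Nr3c1 to raise a set of genes that includes Fkbp5 and Tsc22d3.

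All 9 LSK markers considered were above the filter. So were all 6 neutrophil, 6 macrophage and 4 B cell markers, so passing the filter does not show how pure the sort was. Kit was between 97.5 and 118 FPKM in control and between 103 and 119 FPKM in irradiated libraries. Ly6a, which encodes Sca1, was between 132 and 211 FPKM in control and between 110 and 172 FPKM in irradiated libraries. Markers of other cells were present in both groups, those of neutrophils at high levels. The 6 neutrophil markers summed to between 2017 and 4016 FPKM in control and between 1641 and 3541 FPKM in irradiated libraries. Most of this was S100a8 and S100a9. The 9 LSK markers summed to less, between 776 and 832 FPKM in control and between 681 and 777 FPKM in irradiated libraries. Depth relative to the first control library was between 0.644 and 1. Control replicate 2 was the shallowest, was the only library with a value for 18S ribosomal RNA (39327 FPKM), and had a high interferon list. Irradiated replicate 2 was high in dendritic and B cell genes, with the class II gene H2-Aa at 324 FPKM against 71.6 to 163 FPKM in the other 5 libraries. Results were therefore also computed without these libraries. Since whole pools were measured, fewer cells of a type and less RNA per cell cannot be told apart for any gene below. The labels give separate pools but not their dates, so p-values measure the spread between these pools.

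In LSK cells of mice irradiated at least 9 weeks earlier, the platelet and megakaryocyte genes Selp, F2r and Gfi1b rose, as did the AP-1 subunit gene Jun, the cell cycle inhibitor gene Cdkn2c, the junction scaffold gene Tjp1 and the myeloid genes Nkg7 and Hk3. Fkbp5 and Hif3a, which glucocorticoids induce, fell together with Serpinf1 and Abcg3. In all, 13 of 12903 genes passed an adjusted p of 0.05 in limma, which is 0.101% of them: 9 rose (0.0698%) and 4 fell (0.0310%). With rows named as small or ribosomal RNA left out and the libraries rescaled, 12 rose and 11 fell. A further 6 genes had an adjusted p between 0.05 and 0.10. Over all tested genes the median log2 fold change was 0.0085, the 5th percentile -0.24 and the 95th percentile 0.28. At an unadjusted p under 0.05 there were 886 genes, or 6.87%. In 12.7% of genes the 3 irradiated values did not overlap with the 3 control values, with the irradiated libraries higher in 7.42% and lower in 5.28%. Across genes, Pearson's r between libraries was between 0.981 and 0.988 both within and between groups.

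**Figure D1:**
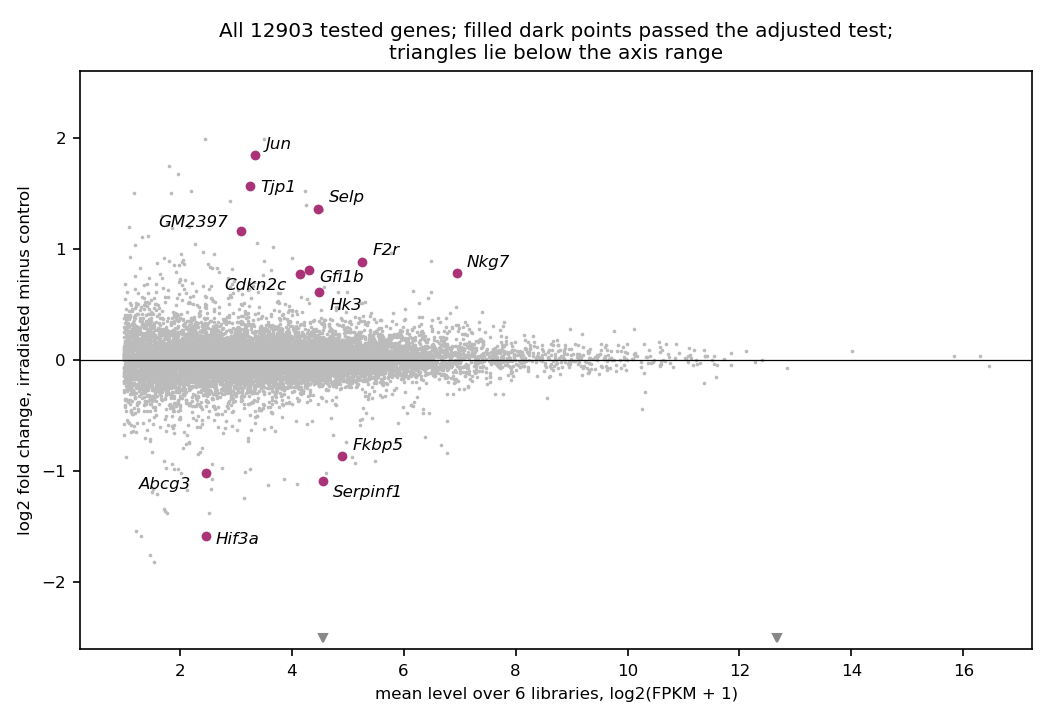
Log2 fold change (irradiated minus control, vertical axis) of each of the 12903 tested genes against its mean level in log2(FPKM + 1) over the 6 libraries (horizontal axis). The 13 genes that passed the adjusted test are named; 9 lie above and 4 below the line at 0, and 2 rows beyond the axis range are drawn as triangles.

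**Figure D2:**
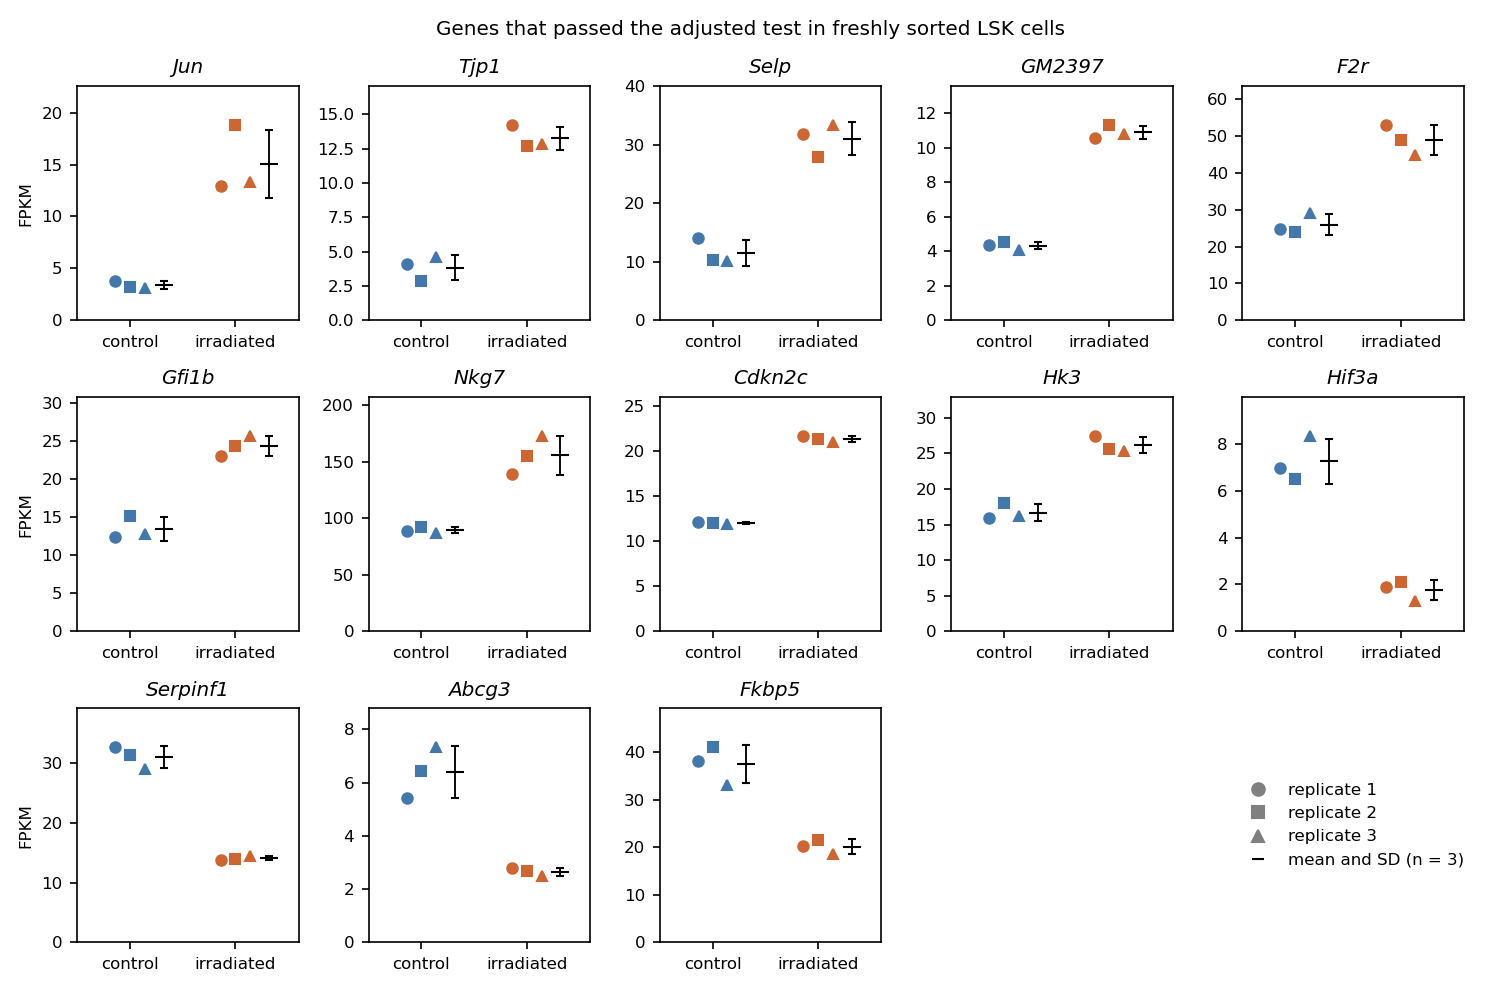
FPKM (vertical axes, from 0) of the 13 genes that passed the adjusted test in each control and irradiated library; symbols mark the replicate, and bars the mean and SD of 3 libraries. In each of the 13 panels the irradiated values lie entirely above or entirely below the control values, for example 12.97 to 18.8 against 3.14 to 3.83 FPKM for Jun.

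Selp, which encodes P-selectin, the adhesion receptor that platelets and endothelium bring to their surface on activation, is also known for its high RNA level in stem cells of old mice. It stood at 14.2, 10.4 and 10.1 FPKM in the control and at 31.8, 27.9 and 33.4 FPKM in the irradiated libraries. The lowest irradiated library was above the highest control, and the log2 fold change was 1.36 ± 0.13 (SE), with an adjusted p of 0.00768. F2r, the thrombin receptor, was at 24.8, 24.0 and 29.1 FPKM in control and at 52.9, 48.8 and 44.8 FPKM in irradiated libraries, a rise of 0.89 ± 0.10 (adjusted p = 0.0205). Gfi1b, a repressor needed to make megakaryocytes and red cells, was at 12.4, 15.2 and 12.7 FPKM in control and at 23.0, 24.4 and 25.6 FPKM in irradiated libraries (0.81 ± 0.10, adjusted p = 0.0238). In each of these genes the 3 irradiated libraries lay close together and apart from the controls. Without irradiated replicate 1 none of them passed, with an adjusted p of 0.0653 for Selp, 0.107 for F2r and 0.107 for Gfi1b. F2r was also lost without control replicate 1 (0.0985), control replicate 2 (0.0695) and irradiated replicate 2 (0.0572). Gfi1b was also lost without control replicate 1 (0.104), control replicate 3 (0.148), irradiated replicate 2 (0.0730) and irradiated replicate 3 (0.129). Both F2r and Gfi1b were lost with no filter on the mean, without a mean-variance trend and with the replicate number as a block. Of 18 alternative settings, Selp passed in 16, F2r in 10 and Gfi1b in 9.

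The bases just upstream of 4 genes higher in the irradiated libraries are shown because Jun and Gata1, whose proteins bind AP-1 and GATA motifs, were themselves higher (Gata1 without passing). The 250 bases before the annotated start come from RefSeq (GRCm38.p6) and are written 5′ to 3′ on the gene's strand. Matches on both strands to the AP-1 letters TGANTCA or to AGATAA, a form of the motif of GATA factors, are in capitals. Selp (chr1:164115014-164115263, plus strand), F2r (chr13:95618467-95618716, minus strand), Gfi1b (chr2:28621983-28622232, minus strand) and Gp5 (chr16:30310782-30311031, minus strand) follow.
Selp: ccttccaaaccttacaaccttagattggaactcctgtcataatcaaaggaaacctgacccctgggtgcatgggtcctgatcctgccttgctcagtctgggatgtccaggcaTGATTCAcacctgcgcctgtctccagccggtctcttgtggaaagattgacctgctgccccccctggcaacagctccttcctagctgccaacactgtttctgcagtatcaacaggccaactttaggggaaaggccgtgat
F2r: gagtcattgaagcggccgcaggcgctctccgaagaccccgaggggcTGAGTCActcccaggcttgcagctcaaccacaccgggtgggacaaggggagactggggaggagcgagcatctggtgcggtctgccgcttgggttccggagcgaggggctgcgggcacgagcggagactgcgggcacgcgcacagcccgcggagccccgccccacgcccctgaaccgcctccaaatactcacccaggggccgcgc
Gfi1b: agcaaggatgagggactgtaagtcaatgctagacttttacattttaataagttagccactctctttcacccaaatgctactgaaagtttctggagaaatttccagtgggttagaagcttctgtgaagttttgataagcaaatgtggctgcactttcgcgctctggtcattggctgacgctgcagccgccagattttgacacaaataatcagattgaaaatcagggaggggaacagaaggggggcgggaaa
Gp5: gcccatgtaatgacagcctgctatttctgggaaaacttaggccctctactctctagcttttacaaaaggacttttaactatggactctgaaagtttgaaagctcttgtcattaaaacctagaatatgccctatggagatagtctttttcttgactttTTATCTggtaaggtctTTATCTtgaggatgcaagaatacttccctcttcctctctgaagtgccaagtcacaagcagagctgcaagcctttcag
The AP-1 letters start 139 bases before the start of Selp and 204 bases before that of F2r, and the GATA letters 93 and 77 bases before that of Gp5. The Gfi1b window held neither of these exact letters, and other forms of the GATA motif were not searched. None of these matches overlap. AP-1 letters occur in 6.75% of all 32851 windows of this length and in 4.34% of the 11576 windows of tested genes. GATA letters occur in 9.99% and 6.24%. Of the 12 genes that passed and have a window, 2 held AP-1 letters and 2 held GATA letters. Those with AP-1 letters were Selp and F2r. Those with GATA letters were Jun, which rose, and Serpinf1, which fell. Of 17 genes of the platelet and megakaryocyte list with a window, 4 held AP-1 letters and 2 held GATA letters, Gp5 being 1 of the latter. In all 10 motifs were searched on both strands. Of these 12 genes, none held the cAMP response element TGACGTCA (1.55% of all windows and 2.59% of those of tested genes), 2 the glucocorticoid half-site AGAACA (16.1% and 10.9%), 4 the RUNX motif TGTGGT (14.1% and 11.03%) and 2 the ETS motif CCGGAA (12.03% and 22.6%). The E-box CACGTG was held by 1 (6.02% and 8.41%), the CCAAT box by 7 (33.9% and 35.9%), the GC box GGGCGG by 7 (32.7% and 57.1%) and the TATA box TATAAA by none (12.4% and 6.63%). A match describes the letters, not binding, and whether Jun or Gata1 acts on these genes was not tested.

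The platelet and megakaryocyte list holds 29 genes, of which 26 were tested. Like the other lists, it was chosen with earlier results of these data known, so its shares are a description and not a test. Of the 26, 3 rose and none fell. The irradiated libraries lay entirely above the controls in 16 of them (61.5%, against 7.42% of all tested genes) and entirely below in 2 (7.69%, against 5.28%). The list's median log2 fold change was 0.43, and 0.32 without irradiated replicate 2. Thbs1, which encodes a platelet granule protein, was one of the lower genes.

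Several surface receptors of platelets were higher in every irradiated library without passing. Gp5, a subunit of the receptor for von Willebrand factor, was at 1.84, 1.88 and 2.40 FPKM in control and at 3.78, 4.28 and 3.96 FPKM in irradiated libraries (0.72 ± 0.12, adjusted p = 0.132). Its partners Gp1ba (0.50), Gp1bb (0.43) and Gp9 (0.57) had smaller log2 fold changes in the same direction, as had the integrin gene Itga2b (0.44). The Gp1bb row joins this gene with its neighbour in the deposited table, so the reads of both enter it. The ligand gene Vwf was low, at 1.53, 1.53 and 2.13 FPKM in control and 2.47, 2.92 and 3.40 FPKM in irradiated libraries. Pf4, a chemokine of platelet granules, was at 23.6, 42.4 and 42.5 FPKM in control and at 48.5, 99.4 and 67.7 FPKM in irradiated libraries (0.96 ± 0.28, adjusted p = 0.467). Its spread within each group was wide, with irradiated replicate 2 the highest library.

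Of the transcription factors of this lineage in the list, Gata1, Zfpm1 and Nfe2 were higher in every irradiated library without passing. Gata1, the master regulator of megakaryocytes and red cells, was at 4.19, 5.49 and 4.88 FPKM in control and at 7.33, 9.62 and 8.25 FPKM in irradiated libraries (0.68 ± 0.13, adjusted p = 0.169). Its cofactor gene Zfpm1 (0.26) and Nfe2 (0.18), which drives platelet release, differed by less. Genes of late platelet formation were near 0: the platelet tubulin gene Tubb1 was at 0.0382 FPKM in 1 control library and at 0 in the other 5 libraries, Gp6 was at 0 in controls and at most 0.146 FPKM in irradiated libraries, and Clec1b was at most 0.568 FPKM. The 6 platelet markers summed to between 50.6 and 77.9 FPKM in control and between 88.9 and 152 FPKM in irradiated libraries, with Pf4 the largest part. Whether cells of that lineage in the sort contribute was not tested.

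Of 16 tested genes of the erythroid list none passed, and 12 had a positive log2 fold change, with a median of 0.32. The irradiated libraries lay entirely above the controls in 4 (Gata1, Epor, Hemgn and Tfr2, or 25% against 7.42% of all tested genes) and entirely below in 1 (6.25%, against 5.28%), the globin gene Hbb-b1. Hbb-b1 was at 66.6, 38.1 and 70.9 FPKM in control and at 30.2, 27.4 and 31.4 FPKM in irradiated libraries (-0.91 ± 0.21, adjusted p = 0.301), and it passed without control replicate 2 (adjusted p = 0.00763).

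**Figure D3:**
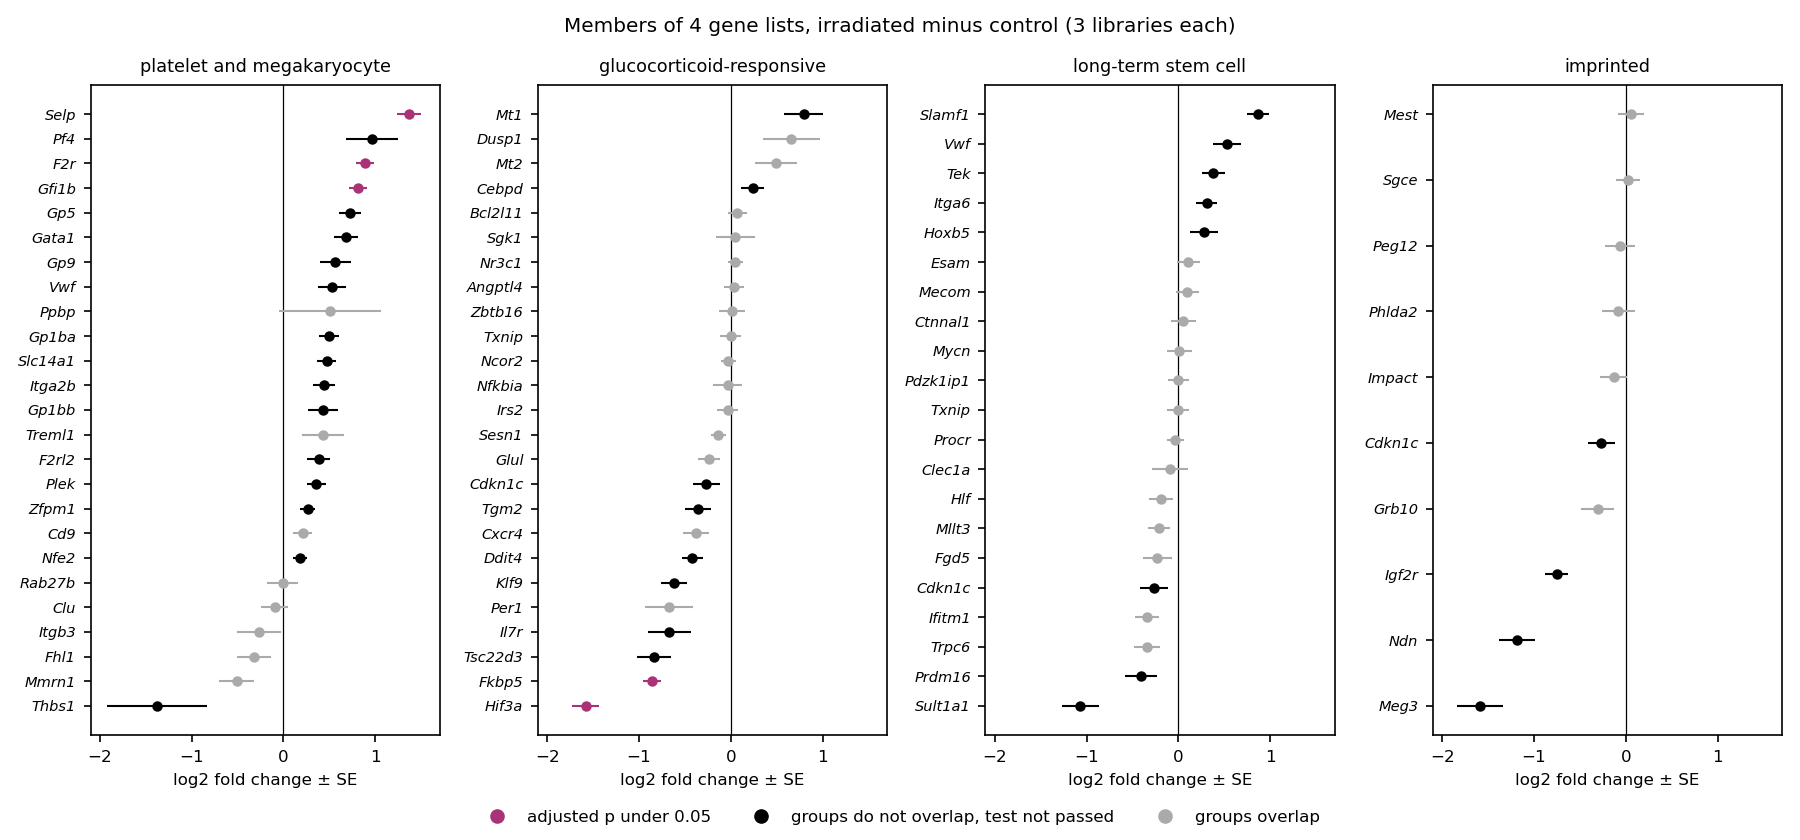
Log2 fold change with standard error (horizontal axes, irradiated minus control) of tested members of 4 lists, ordered by size, without the genes not reported here. Of the platelet and megakaryocyte genes 19 lie above 0, of the 25 glucocorticoid-responsive genes 16 lie below, and Selp, F2r, Gfi1b, Fkbp5 and Hif3a passed the adjusted test.

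Genes of long-term stem cells went in both directions. Of 23 tested members none passed, 5 were higher and 5 lower in every irradiated library (21.7% each, against 7.42% and 5.28% of all tested genes), and the median was -0.03, and 0.04 without control replicate 3. Slamf1, which encodes the stem cell marker CD150, was closest to passing, at 2.44, 3.29 and 3.35 FPKM in control and at 6.34, 6.37 and 6.23 FPKM in irradiated libraries (0.87 ± 0.12, adjusted p = 0.0523). Its irradiated values lay close together, above each control value. The other 4 higher genes were Vwf, Tek, Itga6 and Hoxb5. Sult1a1, a sulfotransferase, was at 17.96, 15.4 and 22.8 FPKM in control and at 8.04, 11.5 and 6.14 FPKM in irradiated libraries (-1.07 ± 0.21, adjusted p = 0.183). Prdm16, a transcription factor that maintains stem cells, and the cell cycle inhibitor gene Cdkn1c were also lower in every irradiated library. Procr, Mecom and Hlf, further stem cell genes, overlapped between the groups.

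Of 14 tested genes of multipotent progenitors none passed, 3 were lower in every irradiated library (21.4%, against 5.28%) and 1 was higher (7.14%, against 7.42%). Flt3, the receptor that marks lymphoid-primed progenitors, was at 72.3, 79.2 and 58.5 FPKM in control and at 46.6, 46.0 and 47.6 FPKM in irradiated libraries (-0.56 ± 0.11, adjusted p = 0.183). Gpr171 and Cd27 were lower in every irradiated library as well, whereas Cd48 was higher (0.46 ± 0.13, adjusted p = 0.457). In the lymphoid priming list 3 of 21 genes were lower in every irradiated library (14.3%, against 5.28%) and 1 was higher (4.76%, against 7.42%). The 3 lower genes were among those with the smallest p there: Flt3, Notch1 (-0.37 ± 0.09, adjusted p = 0.319) and the interleukin 7 receptor gene Il7r (-0.67 ± 0.23, adjusted p = 0.587).

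Jun, a subunit of AP-1, had the largest rise of the genes that passed. It was at 3.83, 3.26 and 3.14 FPKM in control and at 12.97, 18.8 and 13.3 FPKM in irradiated libraries (1.85 ± 0.15, adjusted p = 0.00359). It passed without each library in turn and was lost only when no filter on the mean was used (adjusted p = 0.0626). Fos, its usual partner, was at 1.04, 0.629 and 0.826 FPKM in control and at 3.35, 6.22 and 3.43 FPKM in irradiated libraries (1.51 ± 0.21, adjusted p = 0.0523). Both were highest in irradiated replicate 2. Junb was higher in every irradiated library by less (0.35 ± 0.14, adjusted p = 0.672), and Fosb, below the filter, was at most 0.111 FPKM in control and at least 0.408 FPKM in irradiated libraries.

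Of 22 tested genes of the AP-1 and immediate early list 1 rose, and only Jun, Fos and Junb were higher in every irradiated library (13.6%, against 7.42%). Fos was above the filter only through the irradiated libraries, with a mean of 0.832 FPKM in control. Egr1 was at 7.49, 8.09 and 9.94 FPKM in control and at 7.69, 18.1 and 8.73 FPKM in irradiated libraries. Dusp1, Nr4a1, Klf2 and Zfp36 were likewise highest in irradiated replicate 2 and overlapped with the controls. In the list 16 genes had a positive log2 fold change. Its median was 0.25, with 0.08 without irradiated replicate 2 and 0.45 without irradiated replicate 1. Among heat shock genes none of 17 passed. The irradiated libraries lay entirely lower in 3 (17.6%, against 5.28%), Hsph1 (-0.58 ± 0.16, adjusted p = 0.438), Dnajb1 (-0.14) and Hspd1 (-0.12), and entirely higher in 1 (5.88%, against 7.42%), the co-chaperone gene Bag3 (0.28).

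Among genes induced by glucocorticoids, 2 fell. Fkbp5, a co-chaperone that dampens the glucocorticoid receptor, was at 38.2, 41.1 and 33.2 FPKM in control and at 20.2, 21.6 and 18.6 FPKM in irradiated libraries (-0.86 ± 0.10, adjusted p = 0.0238). Hif3a, a hypoxia-inducible factor subunit that restrains its relatives, was at 6.95, 6.48 and 8.32 FPKM in control and at 1.90, 2.11 and 1.29 FPKM in irradiated libraries (-1.58 ± 0.15, adjusted p = 0.00741). Both differences were larger than the spread within either group. Without irradiated replicate 1 neither passed (adjusted p = 0.0549 for Hif3a and 0.127 for Fkbp5). Fkbp5 was also lost without control replicate 1 (0.104), control replicate 2 (0.0702), irradiated replicate 2 (0.0521) and irradiated replicate 3 (0.101). Of the alternative settings, Hif3a passed in 15 of 17 and Fkbp5 in 10 of 18.

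Other glucocorticoid targets were lower without passing. Tsc22d3, a leucine zipper protein that mediates part of the hormone's action, was at 110, 148 and 161 FPKM in control and at 75.7, 96.5 and 61.6 FPKM in irradiated libraries (-0.84 ± 0.18, adjusted p = 0.276). Klf9 was at 9.55, 10.2 and 12.5 FPKM in control and at 7.002, 7.58 and 5.33 FPKM in irradiated libraries (-0.62, adjusted p = 0.301). Ddit4, an inhibitor of mTOR signalling, was lower as well (-0.42, adjusted p = 0.438). In all, 8 of 25 tested genes were lower in every irradiated library (32.0%, against 5.28%). The metallothionein gene Mt1 and Cebpd were the 2 that were higher in every one (8%, against 7.42%). The median was -0.04, and between -0.14 without irradiated replicate 2 and -0.0050 without control replicate 3. Several members overlapped: the receptor gene Nr3c1 was between 14.8 and 15.7 FPKM in control and between 14.7 and 16.9 FPKM in irradiated libraries, and Sgk1 and Zbtb16 overlapped as well. Per1, which is also a clock gene, was at 29.3, 28.1 and 35.7 FPKM in control and at 19.6, 29.2 and 11.97 FPKM in irradiated libraries. Of 17 tested clock genes none passed.

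Serpinf1, which encodes a secreted factor of the serpin family that inhibits blood vessel growth, had the smallest p of all genes. It was at 32.7, 31.3 and 29.0 FPKM in control and at 13.8, 13.9 and 14.5 FPKM in irradiated libraries (-1.08 ± 0.08, adjusted p = 0.00359). The predicted gene GM2397 was at 4.34, 4.51 and 4.10 FPKM in control and at 10.6, 11.3 and 10.8 FPKM in irradiated libraries (1.16 ± 0.09, adjusted p = 0.00359). Serpinf1 and GM2397 passed in all 18 alternatives computed. With no filter on the mean, they and Cdkn2c were the only ones of the 13 to pass. Tjp1, a scaffold protein of tight junctions, was at 4.07, 2.87 and 4.61 FPKM in control and at 14.2, 12.7 and 12.9 FPKM in irradiated libraries (1.57 ± 0.14, adjusted p = 0.00741, and 0.0560 without irradiated replicate 1). Abcg3, a rodent ABC transporter, was at 5.40, 6.44 and 7.33 FPKM in control and at 2.78, 2.69 and 2.47 FPKM in irradiated libraries (-1.01 ± 0.12, adjusted p = 0.0294). It was lost without control replicate 2 or 3 or any 1 irradiated library (adjusted p between 0.0730 and 0.148), and passed in 9 of 17 alternatives.

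The inhibitor gene Cdkn2c, whose protein blocks the kinases that start the cell cycle and limits stem cell self-renewal, was the tightest of the genes that passed. It was at 12.1, 12.01 and 11.9 FPKM in control and at 21.6, 21.3 and 21.0 FPKM in irradiated libraries (0.78 ± 0.07, adjusted p = 0.00741, and 0.0628 without irradiated replicate 1). 9630013D21Rik, its neighbour in the RefSeq gene order, was at 1.15, 0.524 and 1.47 FPKM in control and at 4.29, 4.12 and 2.85 FPKM in irradiated libraries (1.23 ± 0.21, adjusted p = 0.131). Reads of the neighbours cannot be told apart where the transcripts overlap. Other inhibitors did not pass: Cdkn1a overlapped between the groups (0.14 ± 0.15, adjusted p = 0.942) and Cdkn1c was lower in every irradiated library (-0.27, adjusted p = 0.815).

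Genes of cell division were mostly higher by small amounts, and as a list the groups overlapped. Of 30 tested genes of S phase and mitosis 27 had a positive log2 fold change, against 52.9% of all tested genes, and none passed. Only Mki67, Tk1, Cenpa and Ube2c were higher in every irradiated library (13.3%, against 7.42%). Mki67, the proliferation marker, was at 94.9, 95.1 and 94.2 FPKM in control and at 122, 116 and 105 FPKM in irradiated libraries (0.27 ± 0.08, adjusted p = 0.482). The cyclin gene Ccnd1 was at 11.6, 9.50 and 8.05 FPKM in control and at 14.1, 14.2 and 17.3 FPKM in irradiated libraries (0.60 ± 0.14, adjusted p = 0.301). The list's median was 0.10, and 0.06 without control replicate 3.

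Genes of the DNA damage response did not pass at this time after exposure. Of 23 tested p53 targets none passed, and only Gadd45a was higher in every irradiated library (4.35%, against 7.42%), at 7.01, 6.50 and 6.72 FPKM in control and 7.93, 8.79 and 8.55 FPKM in irradiated libraries (0.28 ± 0.09, adjusted p = 0.511). Trp53 itself overlapped between the groups (0.11 ± 0.08). Of 28 genes of damage signalling and repair none passed, and 3 were higher in every irradiated library (10.7%, against 7.42%), H2ax, Mdc1 and Fancd2. H2ax, whose protein marks broken DNA when phosphorylated, was at 145, 150 and 134 FPKM in control and at 177, 174 and 194 FPKM in irradiated libraries (0.34 ± 0.08, adjusted p = 0.329). The list of senescence and secreted inflammatory genes holds 21, of which 11 were below the filter. The other 10 were tested and none passed. In 9 the log2 fold change was positive, and 3 were higher in every irradiated library (30%, against 7.42%): Igfbp7 (0.90 ± 0.16, adjusted p = 0.159), Tgfb1 (0.42 ± 0.09, adjusted p = 0.242) and Glb1 (0.14 ± 0.09, adjusted p = 0.874). The senescence gene Cdkn2a was listed at 0 in all 6 libraries. A p above the threshold does not show that these genes were alike in the 2 groups. The standard error of a tested gene had a median of 0.11 on the log2 scale.

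Myeloid genes differed by gene. Of 30 tested genes of neutrophil and monocyte differentiation 23 had a positive log2 fold change, against 52.9% of all tested genes. The irradiated libraries lay entirely above the controls in 3 (10%, against 7.42%) and entirely below in none (against 5.28%). The list's median was 0.19, and 0.08 without irradiated replicate 2. Of the 30 genes 2 rose, against 0.0698% of all tested genes. Nkg7, a granule membrane protein of cytotoxic cells that is also found in early myeloid cells, was at 88.8, 92.2 and 87.3 FPKM in control and at 139, 155 and 172 FPKM in irradiated libraries (0.78 ± 0.09, adjusted p = 0.0238). Hk3, the hexokinase of myeloid cells, was at 15.9, 18.01 and 16.2 FPKM in control and at 27.4, 25.6 and 25.3 FPKM in irradiated libraries (0.62 ± 0.08, adjusted p = 0.0477). Nkg7 was lost without any 1 control library or irradiated replicate 2 (adjusted p between 0.0730 and 0.148), and Hk3 without each of the 6 libraries in turn (between 0.0695 and 0.214). Of 18 alternatives, Nkg7 passed in 10 and Hk3 in 5. Neutrophil granule genes of mature cells did not move with them: S100a8 was at 932, 1725 and 1517 FPKM in control and at 1002, 674 and 1452 FPKM in irradiated libraries. Of 12 tested T and NK cell genes Nkg7 alone passed. The NK markers Ncr1 and Prf1 were below 1 FPKM in each library. Klrd1 and Klrb1c, also NK markers, had means of 1.18 and 1.12 FPKM over the 6 libraries and overlapped between the groups.

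The study's title names C/EBPα and Notch. Cebpa was at 8.14, 12.8 and 5.64 FPKM in control and at 8.57, 7.47 and 8.77 FPKM in irradiated libraries, so the irradiated values fell within the range of the controls. Of 10 tested C/EBP family genes none passed, with Cebpd and Cebpe higher and Trib2 and Cebpz lower in every irradiated library (20% each, against 7.42% and 5.28%). Notch1 was at 9.79, 10.8 and 9.63 FPKM in control and at 7.50, 7.28 and 7.81 FPKM in irradiated libraries. Of 21 tested Notch pathway genes none passed, 3 were lower in every irradiated library (14.3%, against 5.28%) and 2 higher (9.52%, against 7.42%). The fringe genes Mfng (-0.30 ± 0.09) and Lfng (-0.23 ± 0.09), which modify Notch receptors, were lower in every irradiated library along with Notch1. Rbpj, the pathway's DNA-binding factor, and Ncstn, a subunit of the protease that releases the Notch domain, were higher in every irradiated library by less (0.07 and 0.15).

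Several imprinted genes, of which only the copy from 1 parent is active, were lower in every irradiated library, and none passed. Of 10 tested members 4 were lower in every irradiated library and none higher (40%, against 5.28%). Of these, Meg3 and Ndn were above the filter only through the control libraries, with means of 0.204 and 0.724 FPKM in irradiated libraries. The filter on the mean therefore enters into this share. Meg3, a noncoding RNA of the Dlk1-Meg3 cluster that is known to be active in long-term stem cells, was at 3.74, 1.38 and 3.17 FPKM in control and at 0.183, 0.151 and 0.280 FPKM in irradiated libraries (-1.59 ± 0.25, adjusted p = 0.101, and 0.0109 without control replicate 2). Igf2r, which clears the growth factor Igf2, was at 3.76, 4.62 and 4.83 FPKM in control and at 2.18, 2.04 and 2.37 FPKM in irradiated libraries (-0.75 ± 0.12, adjusted p = 0.115). Ndn, a growth suppressor, was at 2.78, 2.21 and 3.83 FPKM in control and at 0.952, 0.437 and 0.784 FPKM in irradiated libraries (-1.18 ± 0.19, adjusted p = 0.113). Cdkn1c was the fourth. Among the 10 members below the filter 6 were lower in every irradiated library and none higher, against 4.73% lower of the 6721 rows below the filter with a value above 0. Rian, a noncoding RNA of the Meg3 cluster, was at 1.16, 0.501 and 0.669 FPKM in control and at 0, 0.168 and 0.0296 FPKM in irradiated libraries, and Mirg of the same cluster was at most 0.128 FPKM in control and listed at 0 in irradiated libraries. H19, Igf2, Plagl1 and Snrpn were the others, all under 1 FPKM. Mest, Sgce and Phlda2 overlapped between the groups. The Meg3 row is joined with a microRNA of its locus in the deposited table.

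Several endothelial genes were low and were higher in every irradiated library. Of 9 tested genes of the stroma and endothelium list none passed, and 5 were higher in every irradiated library (55.6%, against 7.42%): Tek, Pecam1, Vwf, Cxcl12 and Sparc. Cxcl12 was above the filter only through the irradiated libraries, with a mean of 0.683 FPKM in control. Among the 10 below the filter Cdh5, Kdr, Flt4, Stab2 and Plvap were higher in every irradiated library and Col1a2 was lower, against 4.78% higher and 4.73% lower of all such rows. Cdh5, the cadherin of endothelial junctions, was at 0.579, 0.245 and 0.429 FPKM in control and at 1.09, 0.944 and 1.57 FPKM in irradiated libraries. Stem cells share several of these genes. Whether endothelial cells in the sort contribute to Selp or Tjp1 was not tested. The 6 stroma and endothelium markers summed to between 9.10 and 10.5 FPKM in control and between 10.4 and 12.3 FPKM in irradiated libraries, and Col1a1 was below 0.1 FPKM in each.

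The medians of other lists moved with single libraries. The B cell and plasma cell list had the highest median of the 40 lists, 0.49, and 0.14 without irradiated replicate 2. The dendritic cell list stood at 0.30, at -0.25 without that library and between 0.12 and 0.57 without each of the others in turn. The interferon list stood at -0.09, at -0.18 without control replicate 3 and at 0.04 without control replicate 2, in which Mx1 was at 6.80 FPKM against 3.29 to 3.88 FPKM in the other 5 libraries. Without both of these libraries 17 genes passed, 5 higher and 12 lower, 6 of them among the 13: Serpinf1, GM2397, Jun, Tjp1, Hif3a and Selp.

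**Figure D4:**
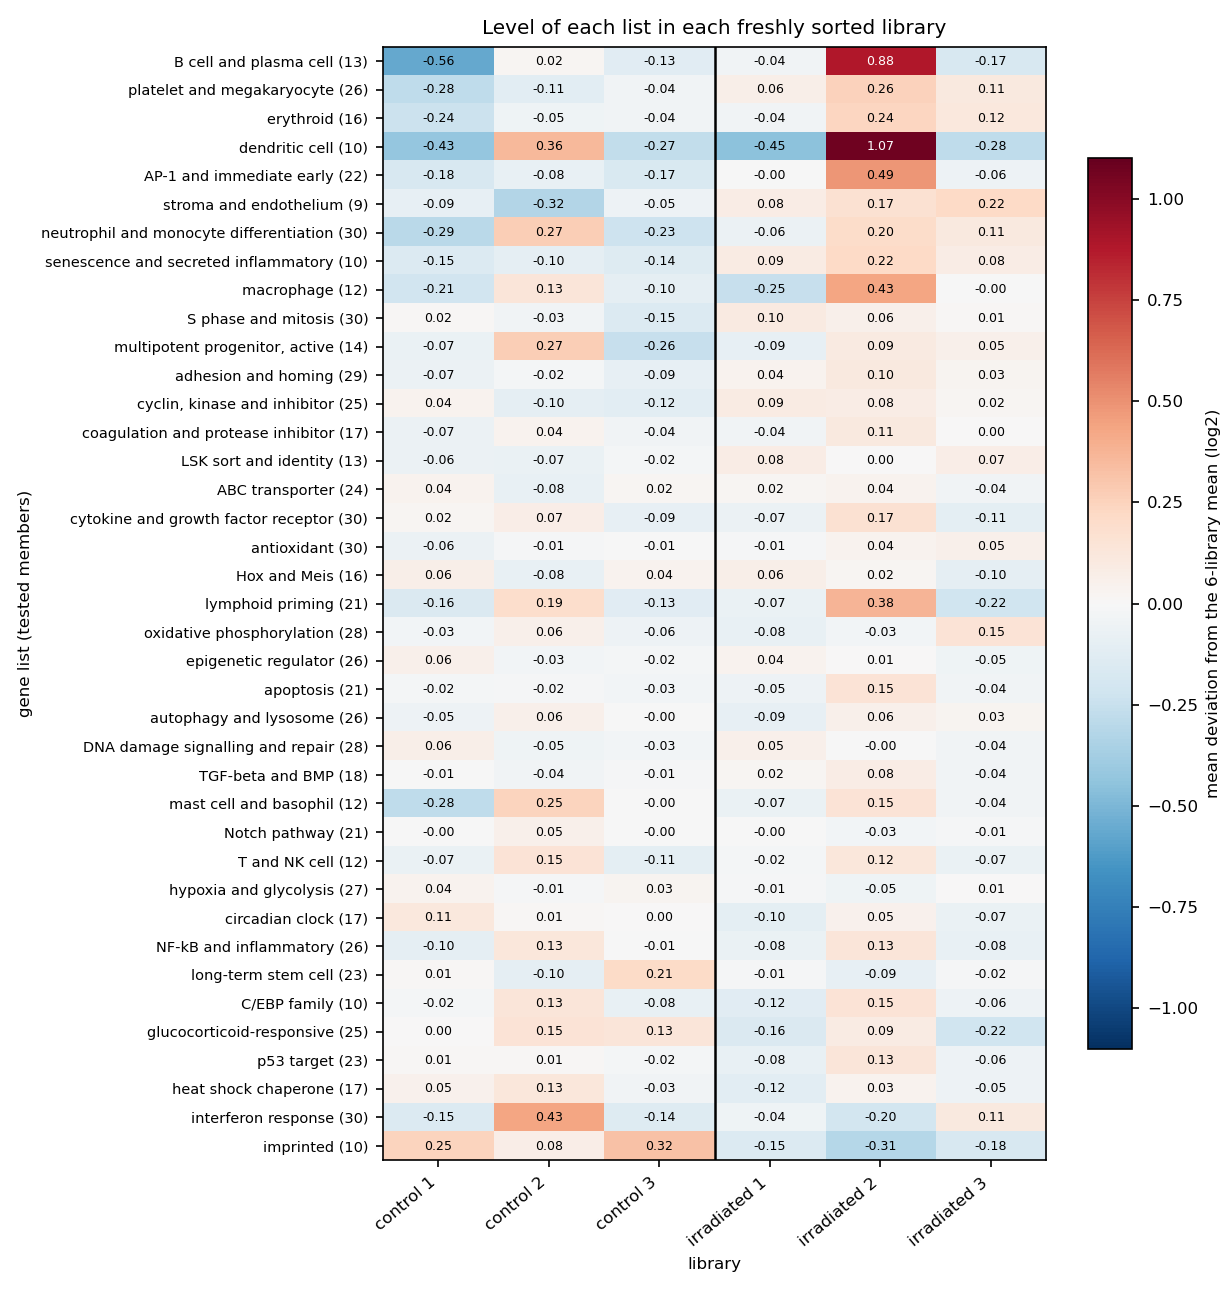
Mean deviation of the tested members of 39 lists from their 6-library mean on the log2(FPKM + 1) scale, by library (columns) and list (rows, with the number of tested members). The platelet and megakaryocyte row is positive in each irradiated and negative in each control library, and the dendritic cell row is highest in irradiated replicate 2, at 1.07.

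The 6 genes next in line after those that passed had an adjusted p between 0.0505 and 0.0527. Fos, Slamf1, the predicted gene Gm5129 and the histone gene H2ac6 were higher, and Ldhb and Tmem158 lower. Gm5129, like Fos, was above the filter only through the irradiated libraries, with a mean of 0.707 FPKM in control. Ldhb, a lactate dehydrogenase subunit, was at 37.7, 37.9 and 38.4 FPKM in control and at 24.9, 19.2 and 23.7 FPKM in irradiated libraries (-0.73 ± 0.10). Tmem158, known as a gene that oncogenic Ras induces in senescent cells, was at 6.95, 7.64 and 6.77 FPKM in control and at 2.18, 3.71 and 2.18 FPKM in irradiated libraries (-1.16 ± 0.16). Among the largest differences with separate groups were also Tlr7, a receptor for viral RNA, at 9.97, 14.9 and 9.46 FPKM in control and at 3.88, 6.21 and 2.98 FPKM in irradiated libraries (-1.24 ± 0.23, adjusted p = 0.169), and Fabp4, a fatty acid carrier (1.06 ± 0.25, adjusted p = 0.321). The keratin gene Krt80 (1.04 ± 0.24) was higher and Slc35d3, a transporter needed for platelet dense granules (-1.17 ± 0.28), was lower in every irradiated library without passing. The limit of 1 FPKM divided genes of nearly equal level: Lrrc23, Nnat and Pcdhb16 were just outside and Tas1r3, Angpt2 and Tert just inside, with Lrrc23 at a mean of 0.9987 and Tert at a mean of 1.0015 FPKM.

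Of the 13 genes that passed, 12 could be tested in the cultured libraries without DL1, whose 3 irradiated and 3 control samples are separate mice. Of these, 3 passed in the same direction and none in the opposite one. In culture 29.7% of the 12025 tested genes passed, and 13.8% rose. Cdkn2c rose by 0.34 ± 0.08 (adjusted p = 0.00820), Nkg7 by 1.30 ± 0.11 (adjusted p = 8.68e-05) and Hk3 by 1.09 ± 0.07 (adjusted p = 1.26e-05). Jun had a log2 fold change of 0.27 in culture (adjusted p = 0.219), Selp of 0.05 (adjusted p = 0.872), F2r of 0.0011 (adjusted p = 0.994) and Gfi1b of -0.31 (adjusted p = 0.0947). Pf4 and Itga2b rose in culture (1.35 and 0.63), and in fresh cells they were higher without passing. Among the 11500 genes tested in both settings, 603 had separate groups in both, of which 236 were higher in both, 120 lower in both, 156 higher in fresh and lower in cultured cells, and 91 the reverse. In culture alone the irradiated samples were entirely higher in 17.5% and entirely lower in 20.6% of tested genes. The tables were normalized separately, and the difference between the 2 settings was not tested.

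**Figure D5:**
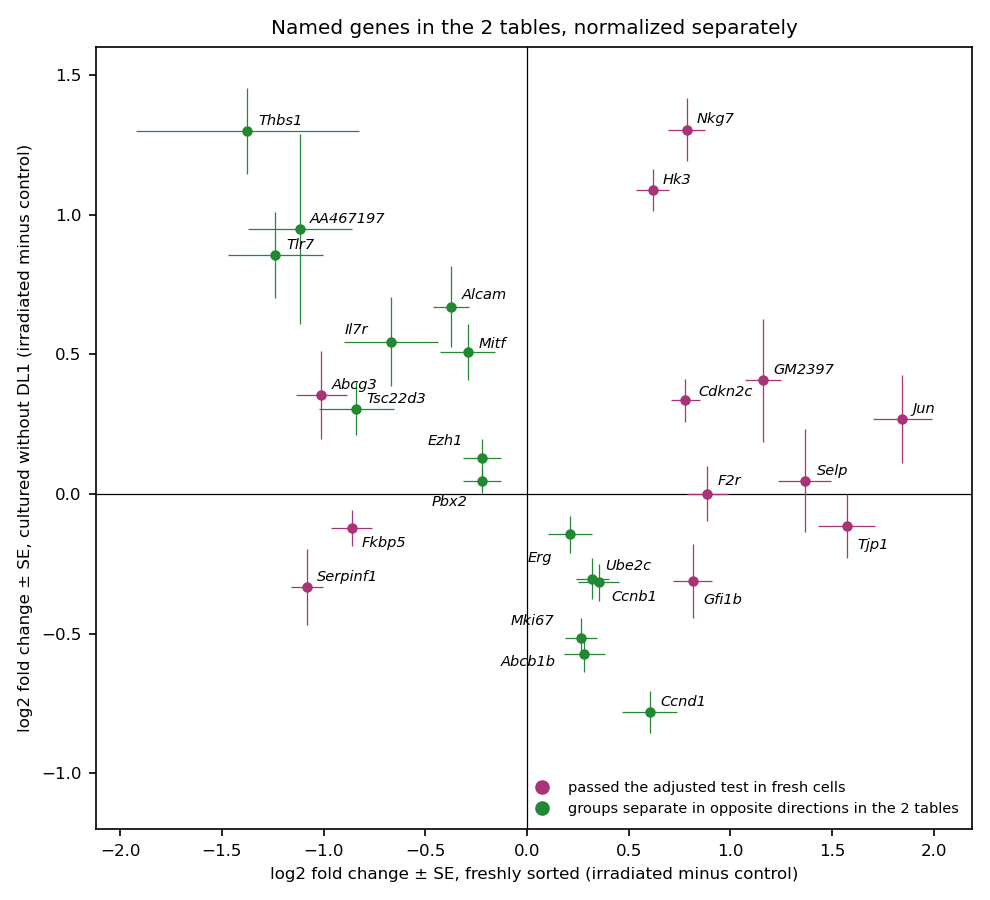
Log2 fold change (irradiated minus control) with standard error in freshly sorted (horizontal axis) and cultured LSK cells without DL1 (vertical axis) for the 12 genes that passed in fresh cells and could be tested in culture, and for named genes whose groups separated in opposite directions. Nkg7, Hk3 and Cdkn2c lie to the upper right, while Selp and F2r lie near 0 on the vertical axis.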

How the data were processed

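RNA of freshly sorted LSK pools (3 control, 3 irradiated) and of cultured LSK cells was extracted with miRNeasy columns and made into libraries with TruSeq RNA reagents, per the labels' protocols. The authors deposited gene values in FPKM, 1 table for fresh and 1 for cultured libraries. Per the submitters' processing notes the tools were TopHat 1.4.1, Cufflinks 1.3.0 and Cuffdiff, and the build named is the human hg19. The build and annotation that were used, and any strand setting, are not given in the sources used here. Of the 25629 row names, 19785 matched a mouse symbol of RefSeq (GRCm38.p6) and 2986 a synonym. The rest were kept as listed, and 123 rows join several names. FPKM carry no counts. Relative depth came from the steps between low values: 32.2 to 34.6% of ratios to the first control lay within 0.1% of a ratio of up to 5 whole reads, against 0.730 to 0.913% for a shifted step. Titles and conditions set the groups, because the source label of controls reads as irradiated.

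For the test, log2(FPKM + 1) was modelled by limma 3.58.1, run in R 4.3.3 (eBayes with a mean-variance trend, two-sided, Benjamini-Hochberg adjustment over all 12903 genes, threshold 0.05). Fold changes are on the log2(FPKM + 1) scale, which understates those of low genes, and errors are standard errors with 3 libraries a group. The cultured table was fitted apart, with its 4 groups of 3 sharing 1 spread. Fold changes between the separately normalized tables are set side by side without a test. The 40 gene lists (947 entries, 798 of them tested) and the genes described were chosen with earlier results of these data known. Genes are named where they passed, were among the 10 largest higher or lower differences with groups that do not overlap, had one of the 3 smallest p in a list, or were markers. A few list members are counted but not reported by name here. Other list members, Ldhb and H2ac6 were named after their values were seen. The test was checked on simulated data. Alternatives changed the pseudocount, filter, scaling, moderation, weights and replicate block and left out libraries.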

Additional observations from a re-analysis of the deposited data

Results flagged for a closer look

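For 15 named genes the groups separated in both tables but in opposite directions, which was not tested. Lower in fresh and higher in cultured irradiated cells without DL1 were Thbs1 (log2 fold change -1.37 fresh, 1.30 cultured), Tlr7 (-1.24, 0.86), AA467197,MIR147 (-1.12, 0.95), Tsc22d3 (-0.84, 0.30), Il7r (-0.67, 0.54), Alcam (-0.37, 0.67), Mitf (-0.29, 0.51), Ezh1 (-0.22, 0.13) and Pbx2 (-0.22, 0.05). Higher in fresh and lower in cultured cells were the cell cycle genes Ccnd1 (0.60, -0.78), Ccnb1 (0.35, -0.32), Ube2c (0.32, -0.30) and Mki67 (0.27, -0.52), and Abcb1b (0.28, -0.57) and Erg (0.21, -0.15). None of the 15 passed the adjusted test in fresh cells. Thbs1 stood at 17.9 FPKM in fresh control replicate 2 against 2.42 and 3.39 FPKM in the other controls.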

How the results depend on the processing

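Of the 13 genes, each kept its direction in all alternatives that could be computed (17 or 18 a gene), and Serpinf1 and GM2397 also passed in each. With no filter on the mean 4 genes passed, 3 higher and 1 lower, 3 of them among the 13. Leaving out rows named as small or ribosomal RNA gave 23 (12 higher, 11 lower), and robust moderation or array quality weights gave 20 (13 higher, 7 lower). Leaving out 1 library gave between 5 and 14 genes, between 4 and 8 of them higher and between 1 and 8 lower, with the fewest without irradiated replicate 1 (5 genes, 4 of them among the 13). Leaving out control replicate 2 and irradiated replicate 2, an alternative chosen after seeing the data, gave 17 (5 higher, 12 lower). Leaving out the 7 rows above a mean of 5000 FPKM, also chosen after seeing the data, gave 16. The other alternatives gave between 9 and 17, and 8 of the 13 genes remained without the mean-variance trend. With the replicate number as a block, 9 genes passed (5 higher, 4 lower), 8 of them among the 13. F2r, Nkg7, Gfi1b, Abcg3 and Hk3 were lost in this blocked fit. Same-numbered libraries deviated together with r = 0.211, 0.118 and 0.0573. Irradiated replicate 3 correlated slightly better with control replicate 2 (r = 0.0735) than with its own number. The labels name no pairs, so the main test took none. Whether same-numbered libraries shared their handling was not tested. Of the 3 genes that passed in both tables, the count was 3 or 4 in each alternative, and the blocked fit left out the unnumbered irradiated library with DL1.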

Other observations

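Beside Selp and Tjp1, no tested gene of the TGF-beta and BMP, adhesion and homing, or Hox and Meis lists passed the adjusted test. Tgfb1, a cytokine that holds stem cells in rest, was at 52.2, 45.1 and 43.3 FPKM in control and at 64.6, 64.4 and 60.1 FPKM in irradiated libraries (log2 fold change 0.42 ± 0.09, adjusted p = 0.242). Its receptor genes Tgfbr2 (0.22 ± 0.09) and Tgfbr3 (0.60 ± 0.16) were higher in every irradiated library as well, while Smad7, which inhibits the pathway, was lower in every one (-0.30). In all, 16.7% of the 18 tested genes of the TGF-beta and BMP list were entirely higher and 5.56% entirely lower, against 7.42% and 5.28% of all tested genes. Of 29 tested adhesion and homing genes 6 were higher and 3 lower in every irradiated library (20.7% and 10.3%, against 7.42% and 5.28%). Beside Selp and Tjp1, Itga6 (0.31) and Icam2 (0.36) were among the higher ones, and Itga9 (-0.53), Jam3 (-0.42) and Alcam (-0.37) were the lower ones. Of 16 tested Hox and Meis genes 2 were higher (12.5%, against 7.42%) and 3 lower (18.8%, against 5.28%) in every irradiated library. Hoxa9 (-0.28 ± 0.11), Hoxa3 (-0.29 ± 0.12) and Pbx2 (-0.22 ± 0.09) were the lower ones, and Hoxb5 (0.28) was among the higher ones.

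Of 28 tested genes of oxidative phosphorylation none passed and none had separate groups, against 12.7% of all tested genes. In the hypoxia and glycolysis list 6 of 27 genes were entirely higher (22.2%, against 7.42%) and 2 entirely lower (7.41%, against 5.28%). Beside Hk3 and Hif3a, the stress-induced gene Ndrg1 was at 35.7, 31.7 and 39.1 FPKM in control and at 48.0, 42.3 and 53.8 FPKM in irradiated libraries (0.42 ± 0.11, adjusted p = 0.389), and Vegfa was lower in every irradiated library (-0.61, adjusted p = 0.642). Plag1, which encodes a zinc finger transcription factor, was between 3.61 and 5.82 FPKM in control and between 1.55 and 1.74 FPKM in irradiated libraries (-1.01 ± 0.16, adjusted p = 0.101). Chchd7, its neighbour in the RefSeq gene order, was at 43.5, 48.1 and 45.3 FPKM in control and at 30.6, 35.2 and 32.1 FPKM in irradiated libraries (-0.47 ± 0.08, adjusted p = 0.132). Plag1 and Chchd7 were named after their values were seen.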
